A study of Mus musculus with 10 samples.

Results

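The genes of cholesterol synthesis, of the liver X receptors (LXR) and their targets, and of lipid storage and transport were followed in mouse macrophages exposed to Kdo2-lipid A, the minimal lipopolysaccharide that activates Toll-like receptor 4 (TLR4). The set is a list of 38 named genes taken by symbol from a count table of 23284 genes. All 38 were present and were among the 12918 genes with enough counts to be tested. Macrophages were grown from the bone marrow of C57BL/6J mice for 6 days in medium with macrophage colony-stimulating factor. Polyadenylated RNA was sequenced from 5 groups: untreated cells at 0 h, cells given 0.03 nM Kdo2-lipid A for 1 h or 2 h, and cells given 10 nM for 1 h or 2 h. Each group held 2 libraries, 1 from each of 2 experiments, 10 libraries in all. The labels do not say how many mice each experiment drew on. Untreated cells were taken only at 0 h, so a change against untreated cells cannot be told apart from an effect of time or handling. The 2 doses can be compared at the same time. The design asks how these transcripts differ between a low and a high dose of 1 TLR4 ligand, and how soon.

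Cells sense their sterol supply in the endoplasmic reticulum. When sterols are low, the escort protein SCAP carries the SREBP transcription factors to the Golgi, where they are cut and released to switch on the genes of cholesterol synthesis. When sterols are high, the INSIG proteins hold SCAP back. Excess sterol is instead oxidised to ligands of the liver X receptors, which switch on cholesterol exporters. Macrophages, which take up lipid-rich debris, are known for their heavy use of this export route. Macrophages also store surplus sterol as esters, and fatty acids as triglyceride, in lipid droplets.

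Library totals ran from 33179599 to 42167096 counts. Values are given as CPM, counts scaled to library size with TMM (trimmed mean of M values) factors, experiment 1 before experiment 2. Log2 fold changes with their standard errors come from edgeR's quasi-likelihood test. A gene is called changed where the p-value, adjusted by the Benjamini-Hochberg method over the 12918 genes, is below 0.05. In bulk RNA, fewer cells of a type and less RNA per cell cannot be told apart. All 8 macrophage markers checked were detected in every group, with Csf1r, the receptor for the growth factor, at 3709 to 4417 CPM. The sum of the 8 stood at 30664 to 32264 CPM after 2 h at 10 nM, against 24907 to 27147 CPM in untreated cells. Single markers moved differently: Cd14 had 3420 and 3322 CPM after 2 h at 10 nM, against 545 and 525 CPM in untreated cells. Mertk had 52.3 and 68.3 CPM after 2 h at 10 nM, against 114 and 120 CPM in untreated cells. The 7 neutrophil markers summed to 30.3 to 37.3 CPM after 2 h at 10 nM, against 18.5 to 25.7 CPM in untreated cells, and the 6 dendritic cell markers to 12.2 to 13.6 CPM, against 6.11 to 7.70 CPM. The 8 stromal, fat and endothelial markers summed to 41.5 to 72.5 CPM, against 36.4 to 63.0 CPM, and the B, T and NK cell markers to at most 4.04 CPM in any library. Of the stromal markers, Col1a1 stood at 16.0 to 18.4 CPM in experiment 2, against 4.73 to 7.95 CPM in experiment 1. Col1a2 stood at 19.6 to 24.5 CPM, against 8.12 to 9.98 CPM. Cdh5, Lepr and Adipoq were not higher throughout in either experiment. The part of these lists in the results was not tested. Of the 3 mast cell markers, Mcpt4 and Tpsb2 were at 0 in all libraries, and Cpa3 stood at 0.0725 to 0.270 CPM. The cytokine gene Tnf, which TLR4 induces, had 3848 and 3669 CPM after 1 h at 10 nM, against 7.79 and 9.91 CPM in untreated cells. After 2 h at 0.03 nM the 2 libraries stood further apart than in the other groups: the SD of their log2 difference over 8415 genes was 0.274, against 0.126 to 0.195 elsewhere. That difference followed exonic length (Spearman rho -0.682, against -0.0286 to 0.369 elsewhere; a description across genes). Among the members the 2 libraries of that group stood far apart in Abca1, with 813 and 521 CPM, and in Stard4, with 19.0 and 11.3 CPM. When libraries were scaled by their total counts alone, the median log2 fold change of all genes against untreated cells was -0.38 after 1 h and -0.59 after 2 h at 10 nM, in place of -0.02 and -0.03 with TMM. Changes below are relative to the TMM scale.

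More members were called at the higher dose and at the later time. After 1 h at 0.03 nM 1 of 38 members was called, with a fall (1.53% of all genes tested were called, 1.42% up and 0.108% down). After 2 h 6 were, 4 up and 2 down (background 9.82%, 6.45% up and 3.37% down). At 10 nM 16 members were called after 1 h, 13 up and 3 down (background 36.9%, 18.5% up and 18.3% down). After 2 h 23 were, 10 up and 13 down (background 58.7%, 28.6% up and 30.1% down). The members' shares, 2.63%, 15.8%, 42.1% and 60.5%, stand beside these backgrounds in the same order. The genes and lists were chosen with earlier results of these data known, so such shares, here and below, are descriptions and test nothing. The median log2 fold change of the members was -0.01, 0.02, 0.08 and 0.09 in the same order, beside medians of all genes between -0.03 and 0.00. Under scaling by library totals the calls split as 2 up and 5 down after 2 h at 0.03 nM, 7 up and 20 down after 1 h at 10 nM and 6 up and 24 down after 2 h at 10 nM. The median log2 fold change of all genes then lay at -0.07, -0.38 and -0.59 in the same order. With a block for the experiment the calls split as 1 up (Nr1h3) and 0 down after 1 h at 0.03 nM, and as 4 up and 4 down after 2 h at 0.03 nM. The backgrounds above are from the main fit and are not matched to these splits. Without 1 library the count ran from 0 to 2 after 1 h at 0.03 nM (0 without either untreated library, the experiment 2 library at 0.03 nM and 1 h or any one 10 nM library). It ran from 3 to 13 after 2 h at 0.03 nM (3 without the experiment 2 untreated library, 13 without the experiment 1 library at 0.03 nM and 2 h).

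**Figure D1:**
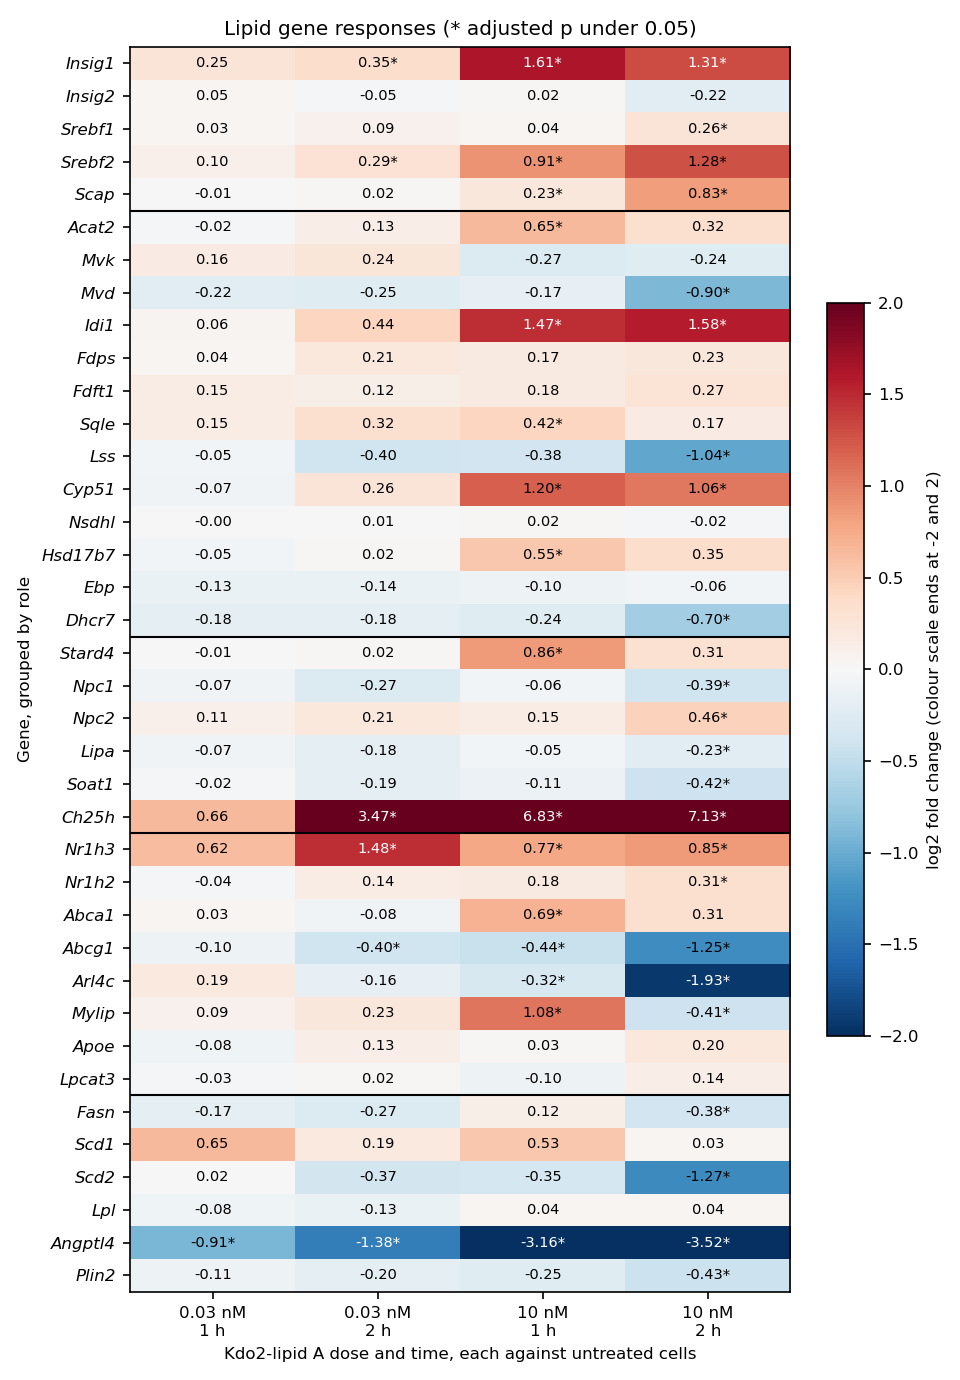
Log2 fold change of each of the 38 genes (rows, grouped by role) against untreated cells in the 4 stimulated groups (columns), from 2 libraries a group; colour runs from blue (lower) to red (higher) and ends at -2 and 2, and an asterisk marks an adjusted p under 0.05. Most called values lie in the 10 nM columns, where Ch25h reached 7.13 and Angptl4 -3.52 after 2 h.

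Of the 5 genes that control SREBP activity, 3 rose within 1 h at 10 nM and 4 were raised at 2 h, although scaling by totals put Scap at 1 h and Srebf1 at 2 h below untreated cells. The calls made up 60.0% of these 5 genes after 1 h and 80.0% after 2 h, beside 36.9% and 58.7% of all genes. Insig1 stood at 56.6 and 53.6 CPM in untreated cells, 66.1 and 65.3 CPM after 1 h at 0.03 nM and 74.4 and 66.3 CPM after 2 h at 0.03 nM. At 10 nM, Insig1 stood at 179 and 157 CPM after 1 h and 138 and 134 CPM after 2 h. The 4 libraries at 10 nM thus stood above all 6 others, and the level was higher after 1 h than after 2 h in both experiments. Insig1 (chromosome 5, 28397952 to 28405202 on mm9), which encodes the sterol-dependent anchor of SCAP, rose 3.05-fold at 10 nM after 1 h, log2 1.61 ± 0.09 (adjusted p = 4.2e-08), and 2.47-fold after 2 h, 1.31 ± 0.09 (adjusted p = 1.16e-07). At 0.03 nM it rose 1.28-fold after 2 h (adjusted p = 0.0251). Insig2, its relative that is less tied to SREBP activity, was not called in any stimulated group, with log2 fold changes of -0.22 to 0.05.

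Srebf2 stood at 89.8 and 85.9 CPM in untreated cells, 94.1 and 94.2 CPM after 1 h at 0.03 nM and 112 and 102 CPM after 2 h at 0.03 nM. At 10 nM, Srebf2 stood at 167 and 162 CPM after 1 h and 215 and 211 CPM after 2 h. Every stimulated library exceeded both untreated ones, and the order was the same in the 2 experiments. Srebf2, the SREBP gene that chiefly drives cholesterol synthesis, rose 1.22-fold after 2 h at 0.03 nM (adjusted p = 0.0269), 1.87-fold after 1 h at 10 nM (1.27e-06) and 2.43-fold after 2 h at 10 nM (2.84e-08). Scap, the escort itself, moved later. Scap stood at 50.4 and 53.9 CPM in untreated cells, 51.2 and 52.1 CPM after 1 h at 0.03 nM and 52.2 and 53.2 CPM after 2 h at 0.03 nM. At 10 nM, Scap stood at 60.2 and 62.1 CPM after 1 h and 93.2 and 92.5 CPM after 2 h. The 10 nM 2 h libraries stood apart from the other 8, which spanned 50.4 to 62.1 CPM. The rise was 1.78-fold after 2 h (0.83 ± 0.07, adjusted p = 8.37e-07) and 1.17-fold after 1 h (0.0224). Srebf1, whose product favours fatty acid genes, rose 1.20-fold after 2 h at 10 nM (0.00567; log2 -0.29 with scaling by totals) and was near 0 otherwise (log2 0.03 to 0.09); its exons overlap those of Rai1 on the other strand by 107 bases.

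Calls on small changes in this group were lost in some fits without 1 library or with scaling by totals. For Srebf2 at 0.03 nM some of these libraries lay outside the 2 groups compared. The 0.03 nM call on Insig1 was lost without either untreated library (adjusted p = 0.0979 and 0.206) and that on Srebf2 without either untreated library or any one 10 nM library (0.051 to 0.229). Both were lost with scaling by totals (0.0617 and 0.0844) or in a fit of the 2 groups alone (0.143 and 0.208). The 1 h call on Scap was lost without the experiment 1 untreated library or either 10 nM 1 h library (0.0741 to 0.193), and with scaling by totals it stood at log2 -0.14. The call on Srebf1 was lost without the experiment 2 untreated library (0.0594).

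The 13 enzymes of sterol synthesis did not move as a block. After 1 h at 10 nM 5 rose and none fell, and after 2 h 2 rose and 3 fell, but at 0.03 nM edgeR called none (0 at an unadjusted p under 0.05 after 1 h and 3 after 2 h, while DESeq2 called Idi1 after 2 h, log2 0.44, adjusted p = 0.0414). At 10 nM 38.5% of them were called at either time, beside 36.9% of all genes after 1 h and 58.7% after 2 h. Idi1 stood at 14.6 and 16.3 CPM in untreated cells, 14.9 and 17.3 CPM after 1 h at 0.03 nM and 23.8 and 18.1 CPM after 2 h at 0.03 nM. At 10 nM, Idi1 stood at 44.5 and 41.3 CPM after 1 h and 47.6 and 44.6 CPM after 2 h. All 4 libraries at 10 nM lay above the other 6. Idi1, the isomerase that makes the building block for farnesyl chains, rose 2.78-fold after 1 h, log2 1.47 ± 0.13 (adjusted p = 2.85e-06), and 2.98-fold after 2 h, 1.58 ± 0.13 (adjusted p = 7.44e-07).

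Cyp51 stood at 24.6 and 26.7 CPM in untreated cells, 25.5 and 23.3 CPM after 1 h at 0.03 nM and 31.5 and 30.2 CPM after 2 h at 0.03 nM. At 10 nM, Cyp51 stood at 63.2 and 54.3 CPM after 1 h and 57.0 and 50.1 CPM after 2 h. Here too the 10 nM libraries did not overlap the others. Cyp51, which removes a methyl group from lanosterol, rose 2.29-fold after 1 h, log2 1.20 ± 0.10 (adjusted p = 2.04e-06), and 2.09-fold after 2 h, 1.06 ± 0.10 (adjusted p = 2.66e-06). Smaller rises called after 1 h at 10 nM were in Acat2, the thiolase at the start of the route (1.56-fold, adjusted p = 0.00857), Hsd17b7, a keto-steroid reductase (1.46-fold, 0.0298), and Sqle, squalene epoxidase (1.34-fold, 0.0148). By 2 h these 3 were not called, at log2 0.32, 0.35 and 0.17.

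The enzymes that fell did so at 2 h. Lss stood at 10.2 and 8.87 CPM in untreated cells, 9.81 and 8.62 CPM after 1 h at 0.03 nM and 8.32 and 6.10 CPM after 2 h at 0.03 nM. At 10 nM, Lss stood at 6.97 and 7.64 CPM after 1 h and 3.55 and 5.74 CPM after 2 h. The 10 nM 2 h libraries were the lowest, though that of experiment 2 was near the lower 0.03 nM 2 h library. Lss, lanosterol synthase, was 2.05-fold lower after 2 h at 10 nM, log2 -1.04 ± 0.22 (adjusted p = 0.00134); its exons share 188 bases with 4930483K19Rik on the other strand. Mvd stood at 10.8 and 9.81 CPM in untreated cells, 9.09 and 8.58 CPM after 1 h at 0.03 nM and 9.17 and 8.20 CPM after 2 h at 0.03 nM. At 10 nM, Mvd stood at 9.77 and 8.54 CPM after 1 h and 5.35 and 5.71 CPM after 2 h. The 2 values after 2 h at 10 nM lay below the other 8. Mvd, the decarboxylase of the mevalonate route, was 1.86-fold lower, -0.90 ± 0.13 (adjusted p = 9.8e-05). Dhcr7, which catalyses the last step, had 11.5 and 8.17 CPM after 2 h at 10 nM, against 15.8 and 16.1 CPM in untreated cells, and was 1.62-fold lower (0.00135).

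Mvk, Fdps, Fdft1, Nsdhl and Ebp, which act between mevalonate and the late sterols, were not called against untreated cells, with log2 fold changes from -0.27 to 0.27. Exons of Fdft1 overlap 773 bases of Ctsb on the other strand. The calls on Sqle and Hsd17b7 were each lost without any one of the 4 libraries compared (adjusted p = 0.0514 to 0.0891 and 0.0624 to 0.176). That on Acat2 was lost without the experiment 2 untreated library (0.0727). With scaling by totals the 3 had log2 fold changes of 0.06, 0.18 and 0.28 and were not called (0.71, 0.405 and 0.16).

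**Figure D2:**
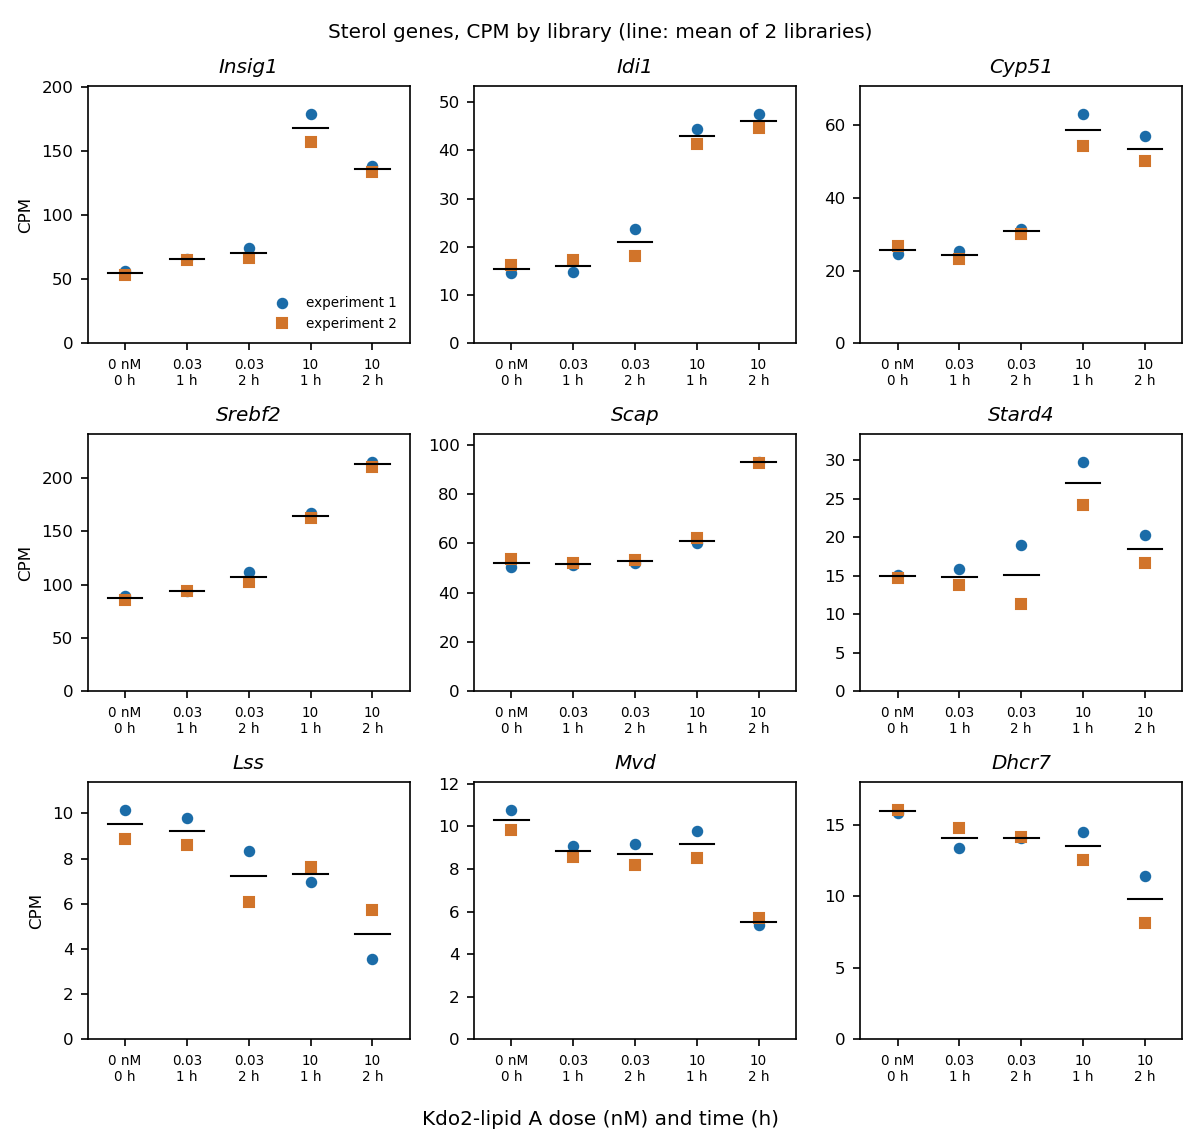
CPM of 9 sterol genes in each library (circle, experiment 1; square, experiment 2; line, mean of the 2), by dose in nM and time in h. Insig1, Idi1 and Cyp51 were already at or near their highest level after 1 h at 10 nM, Scap stood apart at 2 h, and Lss, Mvd and Dhcr7 were lowest at 2 h.

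The 250 bases before the transcription start are shown for the 3 SREBP regulators or sterol enzymes with the largest rises after 1 h at 10 nM, for the 2 with the largest falls after 2 h, and for Ch25h, described next. They are from RefSeq on GRCm38.p6, read 5′ to 3′ on the gene's strand, and 28 of the 38 members matched the table, with 38 windows. Capitals mark matches to 3 motifs searched on both strands, namely the CCAAT box, the E-box (CACGTG) and the core of NF-κB sites (GGGA and CC with any 4 bases between them); no 2 of these overlap in the windows shown.
Insig1, chr5:28071162-28071411, plus strand: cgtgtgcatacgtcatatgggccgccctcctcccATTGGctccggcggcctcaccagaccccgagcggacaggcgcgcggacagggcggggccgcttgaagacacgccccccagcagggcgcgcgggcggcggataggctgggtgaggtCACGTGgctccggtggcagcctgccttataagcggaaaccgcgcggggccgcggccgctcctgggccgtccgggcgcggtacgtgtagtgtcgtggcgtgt
Idi1, chr13:8885356-8885605, plus strand: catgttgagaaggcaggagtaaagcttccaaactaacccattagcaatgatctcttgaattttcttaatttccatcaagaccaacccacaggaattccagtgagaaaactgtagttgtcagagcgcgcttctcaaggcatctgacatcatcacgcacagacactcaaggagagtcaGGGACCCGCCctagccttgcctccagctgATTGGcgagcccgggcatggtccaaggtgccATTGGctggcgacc
Cyp51, chr5:4104698-4104947, minus strand: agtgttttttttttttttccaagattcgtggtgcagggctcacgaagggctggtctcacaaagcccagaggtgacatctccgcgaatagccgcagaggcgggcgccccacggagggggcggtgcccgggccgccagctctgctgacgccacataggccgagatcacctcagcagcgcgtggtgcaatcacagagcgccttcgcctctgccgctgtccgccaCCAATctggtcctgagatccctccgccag
Lss, chr10:76531355-76531604, plus strand: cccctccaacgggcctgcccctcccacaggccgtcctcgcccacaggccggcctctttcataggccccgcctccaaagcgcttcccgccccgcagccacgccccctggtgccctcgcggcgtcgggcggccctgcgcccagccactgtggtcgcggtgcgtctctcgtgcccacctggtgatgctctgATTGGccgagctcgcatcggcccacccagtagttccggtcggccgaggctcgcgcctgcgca
Mvd, chr8:122443423-122443672, minus strand: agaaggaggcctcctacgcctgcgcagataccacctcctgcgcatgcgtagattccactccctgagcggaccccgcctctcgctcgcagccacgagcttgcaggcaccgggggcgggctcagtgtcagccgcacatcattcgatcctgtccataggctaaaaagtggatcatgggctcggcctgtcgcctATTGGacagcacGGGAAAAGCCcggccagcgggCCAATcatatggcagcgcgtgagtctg
Ch25h, chr19:34475149-34475398, minus strand: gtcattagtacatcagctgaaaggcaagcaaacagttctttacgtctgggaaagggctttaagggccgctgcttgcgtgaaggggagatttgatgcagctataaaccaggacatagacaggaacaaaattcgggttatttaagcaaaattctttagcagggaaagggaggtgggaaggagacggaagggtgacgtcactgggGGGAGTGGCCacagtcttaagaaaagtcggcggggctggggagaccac
Of the windows shown, those of Insig1, Idi1, Cyp51, Lss and Mvd each hold at least 1 CCAAT box, and that of Ch25h holds none. Over all windows CCAAT was found in 57.9% of members' windows (22 of 38) and 33.8% of the 32851 windows of all genes. The NF-κB core was found in 34.2% (13 of 38) and 17.6%, including Idi1, Mvd and Ch25h, and the E-box in 13.2% (5 of 38) and 6.02%, including Insig1. The sterol element TCACNCCAC was in 0 members' windows and 1.05% of all windows, and the LXR element (2 copies of AGGTCA with any 4 bases between them) in 0 and 0.0152%. With such low shares of all windows, 0 of 38 was likely for any genes and says nothing about these. Elements that depart from these letters or lie outside the 250 bases were not searched. A match is a description of these letters and shows no binding, and a missing match does not show that binding is absent.

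Among the 6 genes that move, esterify or oxidise sterols, Ch25h changed most of all members. Ch25h stood at 0.50 and 0.627 CPM in untreated cells, 0.603 and 1.17 CPM after 1 h at 0.03 nM and 5.89 and 6.65 CPM after 2 h at 0.03 nM. At 10 nM, Ch25h stood at 60.3 and 68.6 CPM after 1 h and 76.7 and 81.9 CPM after 2 h. The untreated values rest on 21 and 26 counts, and the groups from 2 h at 0.03 nM upward did not overlap them. Ch25h (chromosome 19, 34548274 to 34549625 on mm9, a single exon), whose enzyme makes an oxysterol that restrains SREBP processing and activates LXR, rose 114-fold after 1 h at 10 nM, log2 6.83 ± 0.21 (adjusted p = 2.66e-10), and 140.0-fold after 2 h, 7.13 ± 0.21 (adjusted p = 1.11e-10). At 0.03 nM it rose 11.1-fold after 2 h (1.22e-06) and was at log2 0.66 ± 0.31 after 1 h (adjusted p = 0.68).

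Stard4 stood at 15.1 and 14.7 CPM in untreated cells, 15.9 and 13.8 CPM after 1 h at 0.03 nM and 19.0 and 11.3 CPM after 2 h at 0.03 nM. At 10 nM, Stard4 stood at 29.8 and 24.2 CPM after 1 h and 20.3 and 16.6 CPM after 2 h. Its 1 h libraries at 10 nM were the 2 highest, and the 2 libraries of the 0.03 nM 2 h group were far apart. Stard4, which carries cholesterol between membranes, rose 1.81-fold after 1 h at 10 nM (0.86 ± 0.21, adjusted p = 0.0108) and was at 0.31 after 2 h, not called. After 1 h at 10 nM 33.3% of the 6 genes were called, beside 36.9% of all genes. The 4 remaining genes were called after 2 h at 10 nM, when 83.3% of the 6 were called, beside 58.7% of all genes. Npc2, which hands cholesterol out of the lysosome, rose 1.37-fold (0.00135; log2 -0.10 with scaling by totals), whereas its partner Npc1 was 1.31-fold lower (0.00119), Soat1, which esterifies cholesterol, 1.34-fold lower (0.00251) and Lipa, the lysosomal lipase, 1.17-fold lower (0.0114). With the experiment as a block Npc1 was also called after 2 h at 0.03 nM (-0.27, adjusted p = 0.0371); its exons overlap 3110002H16Rik on the other strand by 164 bases.

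The call on Stard4 was lost without either untreated library or the experiment 1 library at 10 nM and 1 h (0.0562 to 0.0752) and with scaling by totals (0.0757). That on Lipa was lost without either untreated library or the experiment 1 library at 10 nM and 2 h (0.0529 to 0.0816).

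The LXR genes and their classical targets moved in different directions. Nr1h3 stood at 24.4 and 30.9 CPM in untreated cells, 38.1 and 47.0 CPM after 1 h at 0.03 nM and 68.9 and 85.3 CPM after 2 h at 0.03 nM. At 10 nM, Nr1h3 stood at 43.4 and 50.9 CPM after 1 h and 48.6 and 51.0 CPM after 2 h. The 2 highest libraries were those of the low dose at 2 h, and the untreated libraries were the 2 lowest. Nr1h3, which encodes LXRα, was 2.79-fold higher after 2 h at 0.03 nM, log2 1.48 ± 0.15 (adjusted p = 8.24e-05), 1.70-fold higher after 1 h at 10 nM (0.00199) and 1.80-fold higher after 2 h at 10 nM (0.000536). After 1 h at 0.03 nM it was at 0.62 ± 0.15, not called without the block for the experiment (adjusted p = 0.0987) and called with it (0.00312) or with DESeq2 (0.00399). Nr1h2, which encodes LXRβ, was 1.24-fold higher after 2 h at 10 nM (0.00568), but at log2 -0.24 with scaling by totals.

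Abca1, which loads cholesterol onto lipid-poor apolipoproteins, had 1160.2 and 1115 CPM after 1 h at 10 nM, against 695 and 713 CPM in untreated cells, and rose 1.62-fold (0.0078). After 2 h at 10 nM it had 843 and 907 CPM and was not called (log2 0.31, adjusted p = 0.125, while DESeq2 gave 0.0468), nor was it called in either 0.03 nM group. Abcg1 stood at 319 and 337 CPM in untreated cells, 300.1 and 311 CPM after 1 h at 0.03 nM and 249 and 246 CPM after 2 h at 0.03 nM. At 10 nM, Abcg1 stood at 244 and 238 CPM after 1 h and 128 and 148 CPM after 2 h. Both 10 nM 2 h libraries lay far below the other 8. Abcg1, which exports cholesterol to mature lipoproteins, was 1.32-fold lower after 2 h at 0.03 nM (0.00678), 1.36-fold lower after 1 h at 10 nM (0.000928) and 2.37-fold lower after 2 h at 10 nM, log2 -1.25 ± 0.08 (adjusted p = 8.63e-08).

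Arl4c stood at 179.6 and 179 CPM in untreated cells, 211 and 198 CPM after 1 h at 0.03 nM and 165 and 155 CPM after 2 h at 0.03 nM. At 10 nM, Arl4c stood at 154 and 133 CPM after 1 h and 46.7 and 47.3 CPM after 2 h. The 10 nM 2 h pair again stood apart below the rest. Arl4c, a small GTPase gene known as an LXR target in macrophages, was 3.82-fold lower after 2 h at 10 nM, -1.93 ± 0.09 (adjusted p = 3.5e-09), and 1.25-fold lower after 1 h (0.0099). Mylip stood at 89.7 and 84.2 CPM in untreated cells, 95.9 and 89.0 CPM after 1 h at 0.03 nM and 109 and 94.7 CPM after 2 h at 0.03 nM. At 10 nM, Mylip stood at 194 and 173 CPM after 1 h and 64.8 and 66.2 CPM after 2 h. Mylip was thus highest after 1 h and lowest after 2 h at 10 nM, with no overlap with untreated libraries either time. Mylip, which encodes a ubiquitin ligase and is a known LXR target, was 2.11-fold higher after 1 h, 1.08 ± 0.09 (adjusted p = 2e-06), and 1.33-fold lower after 2 h, -0.41 ± 0.09 (adjusted p = 0.00224).

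Apoe, the apolipoprotein gene, had 7399 and 8402 CPM after 2 h at 10 nM, against 6489 and 7234 CPM in untreated cells, and was not called (log2 0.20 ± 0.13, adjusted p = 0.209) unless the experiment was blocked (0.0437). Lpcat3, a phospholipid remodelling enzyme gene whose exons overlap Emg1 on the other strand, was not called in any stimulated group (log2 -0.10 to 0.14). Calls lost without 1 library were Abcg1 after 2 h at 0.03 nM (without the experiment 2 untreated library, 0.0842), Arl4c after 1 h at 10 nM (without either untreated library, or the experiment 2 library at 10 nM and 1 h, 0.0536 to 0.132) and Nr1h2 (without the experiment 2 untreated library, 0.0603). With scaling by totals the calls on Abca1 after 1 h (0.113) and Nr1h3 after 2 h (0.0986) were lost; that on Abcg1 at 0.03 nM was lost in a fit of the 2 groups alone (0.0517).

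**Figure D3:**
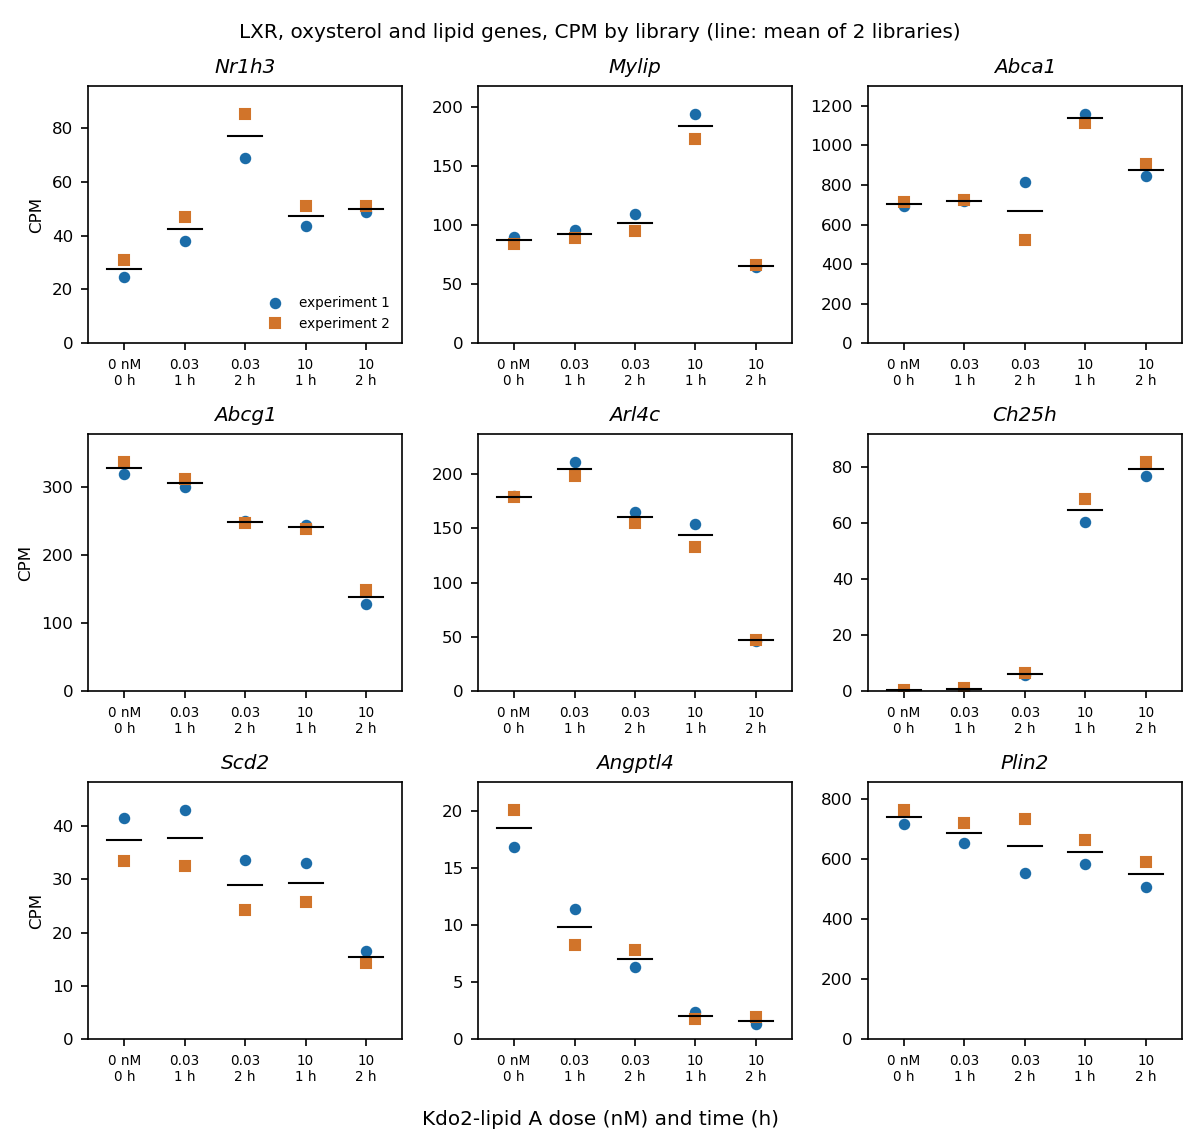
CPM of 9 LXR, oxysterol and lipid storage genes in each library (circle, experiment 1; square, experiment 2; line, mean of the 2), by dose in nM and time in h. Nr1h3 was highest after 2 h at 0.03 nM, Mylip peaked after 1 h at 10 nM, Ch25h was high in both 10 nM groups, and Abcg1, Arl4c and Angptl4 were lowest or near their lowest after 2 h at 10 nM.

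Of the 6 genes of fatty acids and triglyceride none rose against untreated cells, and after 2 h at 10 nM 4 had fallen. These 4 were 66.7% of them, beside 30.1% of all genes called lower and 58.7% called in either direction. Angptl4 stood at 16.9 and 20.2 CPM in untreated cells, 11.5 and 8.27 CPM after 1 h at 0.03 nM and 6.35 and 7.82 CPM after 2 h at 0.03 nM. At 10 nM, Angptl4 stood at 2.40 and 1.74 CPM after 1 h and 1.31 and 1.91 CPM after 2 h. All 8 stimulated libraries lay below both untreated ones, and the 10 nM libraries below the 0.03 nM ones. Angptl4 (chromosome 17, 33911845 to 33918520 on mm9), which encodes a secreted inhibitor of lipoprotein lipase, was 1.88-fold lower after 1 h at 0.03 nM (0.0448), 2.61-fold lower after 2 h at 0.03 nM (0.000811), 8.95-fold lower after 1 h at 10 nM, log2 -3.16 ± 0.23 (adjusted p = 4.87e-07), and 11.5-fold lower after 2 h at 10 nM, -3.52 ± 0.24 (adjusted p = 1.35e-07). Lpl, which encodes the lipase itself, spanned 2316 to 2827 CPM over the 10 libraries and was not called in any stimulated group.

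Scd2 stood at 41.4 and 33.4 CPM in untreated cells, 43.0 and 32.5 CPM after 1 h at 0.03 nM and 33.6 and 24.2 CPM after 2 h at 0.03 nM. At 10 nM, Scd2 stood at 33 and 25.8 CPM after 1 h and 16.6 and 14.4 CPM after 2 h. The 2 values after 2 h at 10 nM were the lowest, and the experiment 1 library was the higher one in each group. Scd2, a desaturase that makes monounsaturated fatty acids, was 2.42-fold lower after 2 h at 10 nM, log2 -1.27 ± 0.21 (adjusted p = 0.000521). With the experiment as a block it was also called lower after 2 h at 0.03 nM (-0.38, adjusted p = 0.017) and after 1 h at 10 nM (-0.35, 0.00847). Its paralogue Scd1, at 1.22 to 3.21 CPM, was not called. Whether reads were shared between these related genes was not tested. Plin2, a lipid droplet coat gene, was 1.35-fold lower after 2 h at 10 nM (0.0135) and Fasn, fatty acid synthase, 1.3-fold lower (0.0019). Plin2 was also called after 1 h at 10 nM with the block (-0.25, 0.0336).

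The low-dose call on Angptl4 after 1 h was lost with the block (0.0551), in a fit of the 2 groups alone (0.0695), and without either untreated library, the experiment 2 library at 0.03 nM and 1 h or any one 10 nM library (0.0526 to 0.575). That on Plin2 was lost without the experiment 1 library at 10 nM and 2 h (0.114) or the experiment 2 untreated library (0.0785).

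At a matched time the 10 nM cells differed from the 0.03 nM cells in 16 members after 1 h, 13 higher and 3 lower (42.1%, background 35.3%, 18.0% higher and 17.3% lower). After 2 h they differed in 16, 7 higher and 9 lower (42.1%, background 52.8%, 25.6% higher and 27.2% lower). After 1 h the largest differences were in Ch25h, 72.3-fold higher, and Angptl4, 4.77-fold lower. Idi1 (1.41), Insig1 (1.36), Cyp51 (1.27), Mylip (0.99), Stard4 (0.87) and Srebf2 (0.81) were higher at 10 nM on the log2 scale. Abcg1 (-0.34) and Arl4c (-0.51) were lower. Smaller called differences after 1 h were those of Acat2 (0.66), Abca1 (0.66), Hsd17b7 (0.60), Fasn (0.30), Scap (0.24) and Nr1h2 (0.23), all higher at 10 nM on the TMM scale but Fasn, Scap and Nr1h2 lower with scaling by totals.

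After 2 h Ch25h was 12.6-fold higher at 10 nM, and Idi1, Srebf2, Insig1, Scap and Cyp51 were higher by log2 0.80 to 1.14. Nr1h3 ran the other way: it had 48.6 and 51.0 CPM at 10 nM, against 68.9 and 85.3 CPM at 0.03 nM, and was 1.55-fold lower, log2 -0.63 ± 0.15 (adjusted p = 0.00388). Mylip was higher at 10 nM after 1 h but 1.55-fold lower after 2 h (0.000102). Also lower at 10 nM after 2 h were Angptl4 (-2.14), Arl4c (-1.77), Scd2 (-0.90), Abcg1 (-0.84), Mvd (-0.65), Lss (-0.63) and Dhcr7 (-0.52), and Npc2 was higher (0.25; -0.24 with scaling by totals).

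Under scaling by totals the dose calls split as 6 up and 18 down after 1 h and 6 up and 26 down after 2 h. Fasn (-0.061), Nr1h2 (-0.13) and Scap (-0.11) after 1 h and Npc2 (-0.24) after 2 h changed sign. The median of all genes then lay at -0.37 and -0.52. Calls lost with scaling by totals were Hsd17b7, Acat2, Stard4 and Abca1 after 1 h (0.0681 to 0.262), and with the block Nr1h2 (0.0533). Without 1 library, calls after 1 h were lost for Abca1 (either experiment 1 library compared, 0.0512 and 0.0517), Abcg1 (the experiment 2 library at 10 nM, 0.0545), Acat2 (the experiment 2 library at 0.03 nM, 0.0741). They were also lost for Fasn (any but the experiment 1 library at 0.03 nM, 0.0562 to 0.101), Hsd17b7 (any but the experiment 2 library at 10 nM, 0.0648 to 0.124) and Stard4 (the experiment 1 library at 10 nM or the experiment 2 library at 0.03 nM, 0.0751 and 0.0649), and for Scap (any of the 4, 0.0632 to 0.123) and Nr1h2 (any of the 4, or any untreated or 10 nM 2 h library, 0.0673 to 0.2). After 2 h they were lost for Dhcr7 (the experiment 2 library at 10 nM, 0.111), Lss (either experiment 1 library, 0.178 and 0.258), Nr1h3 (the experiment 2 library at 0.03 nM, 0.0508), Scd2 (the experiment 1 library at 0.03 nM, 0.0659) and Npc2 (any untreated or 10 nM library, or the experiment 1 library at 0.03 nM and 2 h, 0.069 to 0.234). In fits of the 2 groups alone Lss (0.0716) and Npc2 (0.12) were not called. With the block Scd2 was called after 1 h (-0.36, 0.00757), and Soat1 (-0.22, 0.0353), Abca1 (0.40, 0.0495) and Plin2 (-0.22, 0.042) after 2 h.

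**Figure D4:**
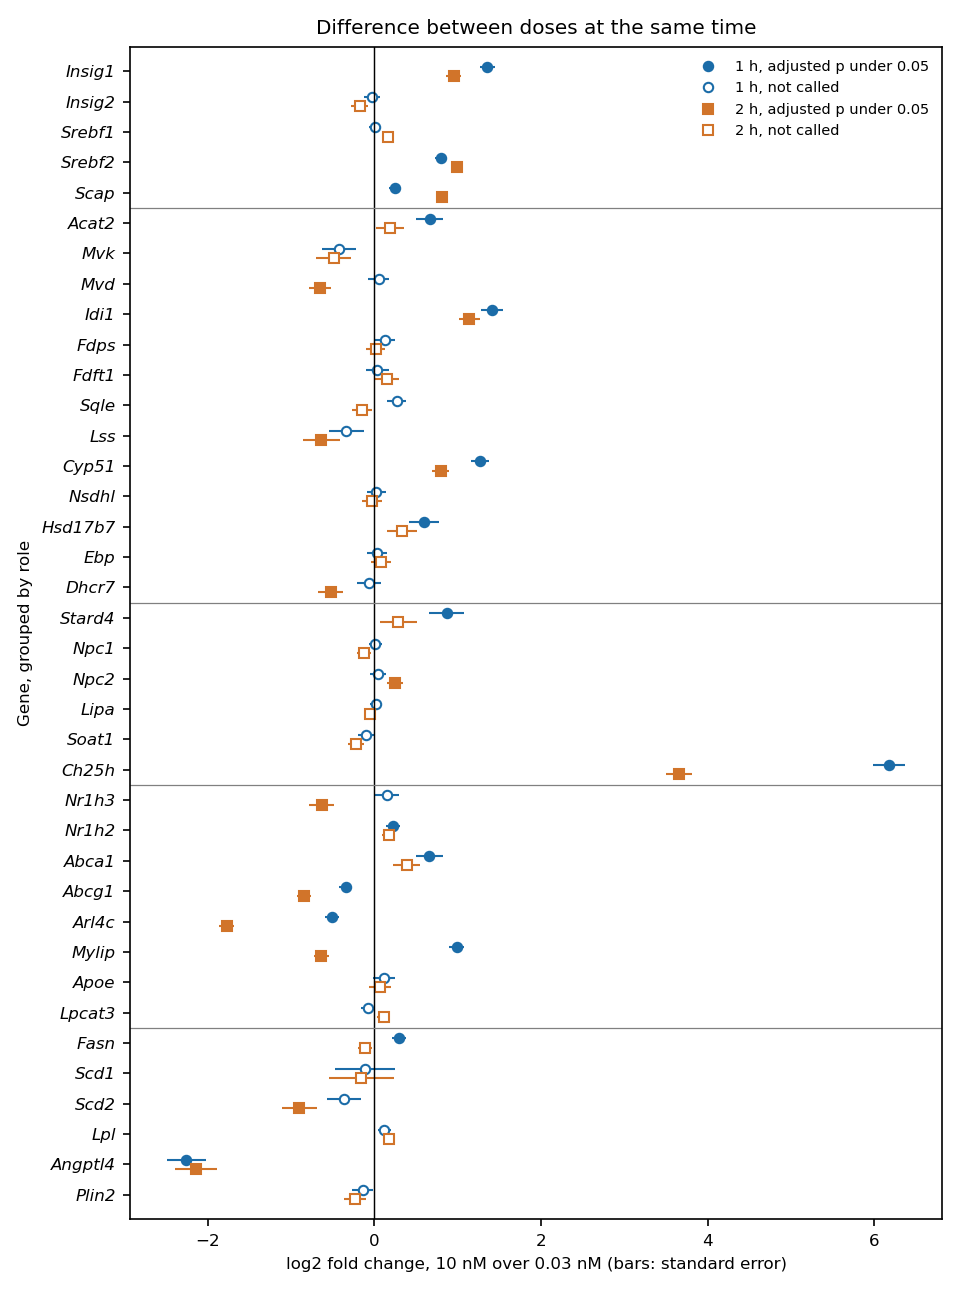
Log2 fold change of 10 nM over 0.03 nM for each of the 38 genes at 1 h (blue circles) and 2 h (orange squares), with standard errors; filled symbols have an adjusted p under 0.05. Mylip lies at 0.99 at 1 h and at -0.64 at 2 h, and Nr1h3 at 0.15 and -0.63.

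Between 2 h and 1 h the 0.03 nM cells differed in 3 members (7.89%, background 5.11%, 3.51% higher and 1.59% lower). Ch25h was 7.04-fold and Nr1h3 1.81-fold higher after 2 h, and Arl4c 1.28-fold lower. At 10 nM 16 members differed between 2 h and 1 h, 5 higher and 11 lower (42.1%, background 42.8%, 21.3% higher and 21.5% lower). The largest falls over time were Arl4c (-1.61), Mylip (-1.48), Scd2 (-0.92), Abcg1 (-0.80), Mvd (-0.73) and Lss (-0.66), and Fasn (-0.51), Dhcr7 (-0.46), Npc1 (-0.33), Insig1 (-0.31) and Soat1 (-0.30) were also lower. Scap (0.60), Srebf2 (0.37), Npc2 (0.31), Lpcat3 (0.24) and Srebf1 (0.23) were higher at 2 h.

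With the block the 0.03 nM contrast called 5 members, 2 up and 3 down, adding Abcg1 (-0.30, adjusted p = 0.0466) and Scd2 (-0.39, 0.0253) to the 3. The 10 nM contrast added Stard4 (-0.55, 0.00979) and Ch25h (0.30, 0.0422). At 0.03 nM the count without 1 library ran from 1 (the experiment 1 library at 1 h) to 9 (the experiment 1 library at 2 h). Nr1h3 was lost without the experiment 1 library at 1 h or the experiment 2 library at 2 h (0.0672 and 0.0896). Arl4c was lost in a fit of the 2 groups alone (0.222) and without either untreated, 0.03 nM 1 h or 10 nM 2 h library or the experiment 2 library at 0.03 nM and 2 h (0.0602 to 0.249). At 10 nM the count ran from 8 (without the experiment 1 library at 1 h) to 22 (without the experiment 1 library at 0.03 nM and 2 h). There Lpcat3, Npc2, Soat1 and Srebf1 lost their calls without any one of the 4 libraries compared (0.055 to 0.159). Insig1 lost its call without any but the experiment 2 library at 1 h (0.0501 to 0.152), Lss without any but the experiment 2 library at 2 h (0.0725 to 0.258). Calls also ended for Dhcr7 without the experiment 1 library at 1 h or the experiment 2 library at 2 h (0.175 and 0.221), Npc1 without the experiment 1 library at 1 h (0.0628), and Scd2 without the experiment 2 library at 2 h (0.0504). Scaling by totals, with a median of all genes of -0.19, left 1 member higher and 19 lower at 10 nM and ended the calls on Srebf1, Npc2, Srebf2 and Lpcat3 (0.061 to 0.708). Without the filter on low counts Srebf1 (0.0636) and Lpcat3 (0.0677) were not called.

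A direct test of the difference between the 2 time courses, the interaction of dose and time, called 10 members (26.3%, background 22.0%, 10.4% positive and 11.6% negative), 1 with a more positive and 9 with a more negative change over time at 10 nM than at 0.03 nM. Mylip differed by log2 -1.62 ± 0.13 (adjusted p = 7.76e-06), Arl4c by -1.26 ± 0.12 (adjusted p = 2.4e-05) and Ch25h by -2.52 ± 0.25 (adjusted p = 3.86e-05). Ch25h was already at 60.3 and 68.6 CPM after 1 h at 10 nM, while at 0.03 nM it stood at 0.603 and 1.17 CPM after 1 h and 5.89 and 6.65 CPM after 2 h. Scap was the member with the positive interaction, 0.57 ± 0.10 (adjusted p = 0.00154).

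**Figure D5:**
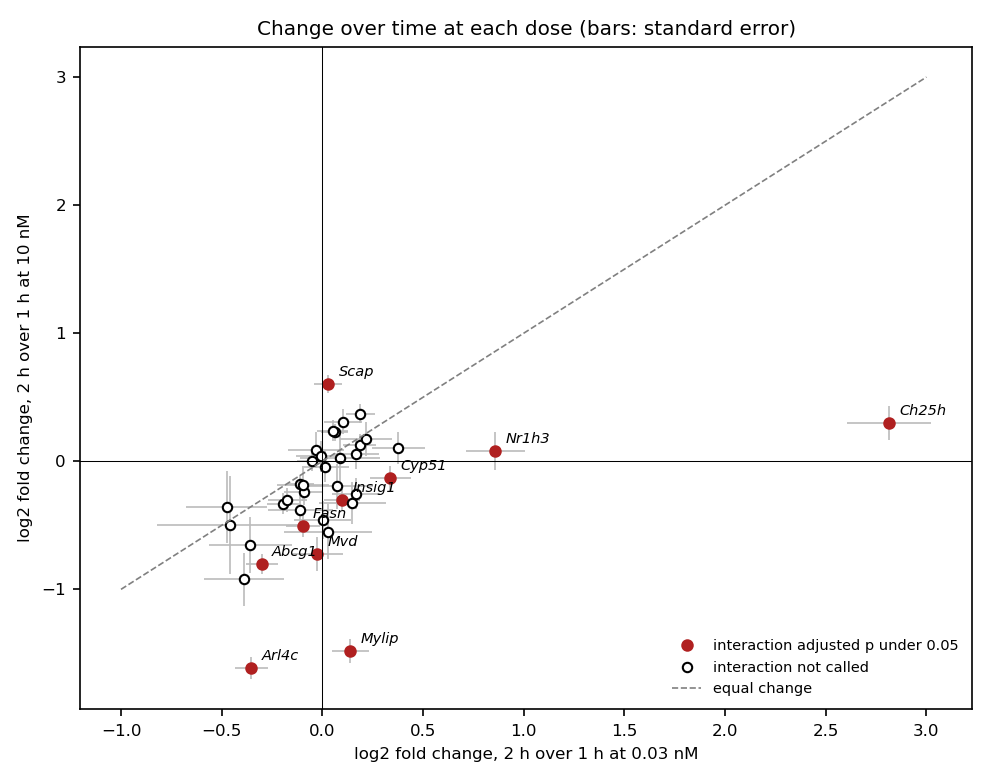
Log2 fold change of 2 h over 1 h at 10 nM (y axis) against that at 0.03 nM (x axis) for the 38 genes, with standard errors; red points have an interaction adjusted p under 0.05 and the dashed line marks equal change. Nearly all members lie close to 0 on the x axis, Ch25h is the far point at 2.82, and Mylip and Arl4c lie lowest on the y axis.

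Levels between genes were compared per length, as RPKM (CPM divided by exon length in kilobases), in untreated cells. Apoe was the highest member at 5187 and 5783 RPKM, followed by Lpl at 622 and 676, Lipa at 589 and 595, Plin2 at 378 and 405 and Npc2 at 329.9 and 344 RPKM. The ranges of Lpl and Lipa did not overlap, nor did those of Plin2 and Npc2. Next came Abca1 at 67.7 and 69.5 and Soat1 at 67.9 and 67.4 RPKM, which overlapped. Npc1 was at 60.0 and 60.7 RPKM and Abcg1 at 54.8 and 57.9 RPKM. The sterol enzymes were lower, the highest being Ebp at 20.1 and 18.4 RPKM, with Cyp51 at 5.66 and 6.13, Idi1 at 5.08 and 5.69 and Lss at 3.28 and 2.86 RPKM. The lowest 3 were Hsd17b7 at 1.1 and 0.980, Ch25h at 0.370 and 0.464 and Scd1 at 0.404 and 0.259 RPKM, and the last 2 overlapped.

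The other genes of the same pathways, from lists of sterol, LXR, fatty acid and lipid uptake genes, were counted in the same contrasts. Of all genes tested, 1.53% were called after 1 h and 9.82% after 2 h at 0.03 nM, and 36.9% after 1 h and 58.7% after 2 h at 10 nM. Of 15 further sterol synthesis and SREBP genes tested, 0 were called after 1 h at 0.03 nM, 3 up after 2 h, 3 up and 2 down after 1 h at 10 nM and 4 up and 4 down after 2 h (after 1 h at 0.03 nM edgeR gave 0 also at an unadjusted p under 0.05, and DESeq2 called 0). These were 20.0% after 2 h at 0.03 nM, 33.3% after 1 h at 10 nM and 53.3% after 2 h. Among the 1 h calls at 10 nM were Sc5d (0.44), Mbtps1 (-0.20) and Erlin1 (-0.24) on the log2 scale. Nfyb, a subunit of the factor that binds the CCAAT box, had 29.2 and 25.5 CPM after 2 h at 10 nM, against 11.8 and 10.7 CPM in untreated cells, and was at 1.28 ± 0.10 (adjusted p = 5.86e-07). It was also called after 2 h at 0.03 nM (0.41). Ggps1, which makes a longer isoprenoid chain, was at -0.65 after 2 h at 10 nM.

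Of 14 further LXR and sterol export genes, 0 were called after 1 h at 0.03 nM, 1 down after 2 h, 3 up and 4 down after 1 h at 10 nM and 5 up and 6 down after 2 h, and the 0 stood beside 1 at an unadjusted p under 0.05 by edgeR and 0 called by DESeq2. These were 7.14% after 2 h at 0.03 nM, 50% after 1 h at 10 nM and 78.6% after 2 h. The shares of all genes were 9.82%, 36.9% and 58.7% in the same order. After 2 h at 10 nM Rxra, the partner receptor of LXR, was at log2 -1.33 ± 0.07, Osbpl3 at 0.88 ± 0.09 and Rxrb at -0.82 ± 0.09. After 1 h at 10 nM Osbpl3 (0.70) and Cyp27a1 (-0.37) were among the 4 with the smallest p, and after 2 h at 0.03 nM Cyp27a1 was lower (-0.33). Of 13 further fatty acid genes 0 were called after 1 h at 0.03 nM, 2 up after 2 h, 5 up and 1 down after 1 h at 10 nM and 5 up and 2 down after 2 h (the 0 beside 2 at an unadjusted p under 0.05 by edgeR and 1 called by DESeq2), which came to 15.4%, 46.2% and 53.8%. They were led after 2 h at 10 nM by Acsl1 (2.57), Acsl5 (1.14), Acsl3 (-1.18) and Fads1 (-0.75), of which the 3 Acsl genes encode enzymes that activate fatty acids. After 1 h at 10 nM they were Acsl1 (1.19), Acsl5 (0.56), Elovl5 (0.39), Acsl4 (0.64), Fads1 (-0.35) and Acaca (0.38), and after 2 h at 0.03 nM Acsl1 (0.65) and Acsl5 (0.30).

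Of 18 further lipid uptake and droplet genes 1 was called up after 1 h at 0.03 nM, 2 up and 1 down after 2 h, 5 up after 1 h at 10 nM and 5 up and 6 down after 2 h. These were 5.56% and 16.7% at 0.03 nM, beside 1.53% and 9.82% of all genes. At 10 nM they were 27.8% and 61.1%, beside 36.9% and 58.7% of all genes. Msr1, a scavenger receptor gene, had log2 fold changes of 0.39, 1.00, 1.65 and 3.05 in that order. Olr1, which encodes a receptor for oxidised lipoprotein, had 2269 and 2646 counts after 1 h at 10 nM and 2592 and 2619 after 2 h, against 0 and 2 counts in untreated cells, and no fold change is given for it. Hilpda, a lipid droplet gene, was at 2.30 and 2.18 after 1 h and 2 h at 10 nM, and Fabp4, a fatty acid carrier gene, at 1.21 and 1.48. Ppard (0.76) was called after 1 h at 10 nM and Cpt1a (-0.31) after 2 h at 0.03 nM.

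Among these other genes the 0.03 nM calls on Nfyb, Cyp27a1, Acsl5, Cpt1a and Msr1 at 1 h were each lost without either untreated library (adjusted p = 0.0809 to 0.611). The 10 nM 1 h calls on Sc5d, Mbtps1, Erlin1 and Acaca were lost without either untreated library or the experiment 1 library at 10 nM and 1 h (0.0583 to 0.291). Scaling by totals brought Elovl5, Acaca and Sc5d after 1 h at 10 nM to log2 0.02 to 0.07, not called. It also ended the calls on Acsl5 (0.20, adjusted p = 0.0552) and Acsl4 (0.27, 0.0685) after 1 h at 10 nM, on Nfyb (0.0657) and Acsl5 (0.101) after 2 h at 0.03 nM and on Msr1 (0.0522) after 1 h at 0.03 nM. The 1 h call on Msr1 at 0.03 nM also ended with DESeq2's size factors (0.052), and those on Mbtps1 and Erlin1 with DESeq2 (0.109 and 0.0985). These 5 low-dose calls were all lost in fits of the 2 groups alone (0.0571 to 0.192), and other single libraries ended the calls on Nfyb, Acsl5, Cpt1a, Msr1, Mbtps1, Erlin1 and Acaca (0.0507 to 0.546).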

How the data were processed

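The deposited table holds raw counts per gene, and per the labels' protocols the libraries were directional and made from polyadenylated RNA. Tools named in the submitters' processing notes, without roles, are featureCounts 1.4.5-p1 from Subread, TopHat2 2.0.11, DESeq2 and bcl2fastq 2.15.0.4, and the build is mouse mm9. Whether counting used strand is not given in the sources used here. A second table of transformed values was not used.

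Of 23284 genes, 6164 had no count and 12918 passed filterByExpr. The counts were fitted in edgeR 4.0.16 (R 4.3.3, limma 3.58.1) with TMM scaling, 1 mean per group over the 10 libraries (5 residual degrees of freedom) and a robust quasi-likelihood test. P-values were adjusted by the Benjamini-Hochberg method over all genes tested in each of 9 contrasts. They rest on the spread between the 2 libraries within a group, estimated over the 5 groups together. The main fit holds no term for the experiment. Alternatives were DESeq2 1.42.0, its size factors, library totals, no filter, the experiment as a block, the compared groups alone and leaving out each library. The labels number the experiments, which pairs the libraries: deviations of same-numbered libraries correlated at -0.26 to 0.55 over 10 pairs of groups, with a median of 0.25, and 7 pairs exceeded 0.1.

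The members and lists were chosen with earlier results of these data known. Every library's value is given for members called against untreated cells or between doses at an absolute log2 fold change of at least 0.8. Other pathway genes are named where 6 or fewer of a list were called, and otherwise the 4 with the smallest p. Values of some genes of these lists are not reported here. The fit was also run on counts simulated from its own estimates of spread. The simulation held no pairing of experiments and no length-linked difference, so it cannot test the fit under these.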

Additional observations from a re-analysis of the deposited data

Results flagged for a closer look

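For 10 of the 38 genes the change between 2 h and 1 h differed between 10 nM and 0.03 nM in edgeR's interaction test, 9 more negative at 10 nM and 1 more positive. That is 26.3% of the members, beside 22.0% of all genes tested (11.6% negative and 10.4% positive). The differences, as log2 with standard errors and adjusted p-values, were -2.52 ± 0.25 for Ch25h (3.86e-05), -1.62 ± 0.13 for Mylip (7.76e-06) and -1.26 ± 0.12 for Arl4c (2.4e-05). The Ch25h time effect was 0.30 at 10 nM and 2.82 at 0.03 nM, that of Mylip -1.48 and 0.14, and that of Arl4c -1.61 and -0.35. Abcg1 differed by -0.50 ± 0.11 (0.00797) and Scap by 0.57 ± 0.10 (0.00154), and these 5 kept an adjusted p under 0.05 without any one library.

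The other 5 calls were each lost in some fits without 1 library, for Insig1 also without libraries outside the groups compared. Nr1h3 differed by -0.78 ± 0.21 (0.0209) and lost the call without the 0.03 nM libraries of experiment 1 at 1 h and of experiment 2 at 2 h, or the 10 nM libraries of either experiment at 2 h and of experiment 2 at 1 h (0.0576 to 0.0875). Mvd differed by -0.70 ± 0.18 (0.0177), lost without the 10 nM libraries of experiment 1 or the experiment 2 library at 0.03 nM and 1 h (0.0621 to 0.0826). Cyp51 differed by -0.47 ± 0.14 (0.0353), lost without the experiment 1 library at 10 nM and 1 h, the experiment 2 library at 10 nM and 2 h or the experiment 2 library at 0.03 nM and 1 h (0.131 to 0.166). Fasn differed by -0.41 ± 0.12 (0.0281), lost without any one 1 h library or the experiment 1 library at 10 nM and 2 h (0.0531 to 0.109). Insig1 differed by -0.40 ± 0.12 (0.0355), lost without either untreated library, either 0.03 nM 1 h library, either 10 nM 2 h library or the experiment 1 library at 10 nM and 1 h (0.0545 to 0.166). Cyp51 (0.0504) and Insig1 (0.0554) were also not called in fits of the 4 stimulated groups alone. With the experiment as a block Scd2 was called as well (-0.53, adjusted p = 0.0118).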

How the results depend on the processing

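Of 107 called values of the members, 107 kept direction and call with DESeq2 and with its size factors, 104 without the filter on low counts, 98 in fits of the compared groups alone and 83 with scaling by library totals. With the replicate block 105 did, the exceptions being Angptl4 after 1 h at 0.03 nM and Nr1h2 between doses at 1 h; calls it added are given beside their genes, and it changed no other reported call on a member. Scaling by totals reversed 8: against untreated cells Scap (-0.14) after 1 h and Srebf1 (-0.29), Npc2 (-0.10) and Nr1h2 (-0.24) after 2 h at 10 nM, and between doses Fasn (-0.061), Nr1h2 (-0.13) and Scap (-0.11) at 1 h and Npc2 (-0.24) at 2 h. Counts of called members moved by over 1.5 times with totals (27 after 1 h at 10 nM, in place of 16, and 32 between doses at 2 h, in place of 16), with DESeq2 (2 after 1 h at 0.03 nM, in place of 1), with the replicate block (5 between times at 0.03 nM, in place of 3) and with the compared groups alone (0 after 1 h and 3 after 2 h at 0.03 nM, in place of 1 and 6). The cause was not tested. The shares of all genes called in these fits are not given here, so these moves are not read as particular to the members. Without 1 library the counts ran from 0 to 2 and 3 to 13 after 1 h and 2 h at 0.03 nM, 11 to 18 and 19 to 25 after 1 h and 2 h at 10 nM, 10 to 17 and 14 to 22 between doses at 1 h and 2 h, 1 to 9 and 8 to 22 between times at 0.03 nM and 10 nM, and 6 to 16 for the interaction; the library left alone in its group is then assumed to vary like the others. Of the 16 calls after 1 h and 23 after 2 h at 10 nM, 10 and 19 held in each of these fits. Depth limits the genes with few counts, as Ch25h in untreated cells and Angptl4 at 10 nM, with 40 and 56 counts after 2 h.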
